A study of Mus musculus with 12 samples.

Results

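The 42 genes described here encode the coats, cargo receptors, small GTPases, tethers and fusion proteins that carry vesicles between the endoplasmic reticulum (ER) and the Golgi. They were chosen by name from known function, with no measured value in the rule, but with earlier results of these data known. All 42 were found among the 21671 genes with a symbol in the deposited table, and all 42 passed the filter on low counts. They fall into 6 roles: 12 genes of the COPII coat and its GTPase cycle, 10 cargo receptors and exit-site organisers, 3 KDEL receptors, 8 COPI coat genes, 3 genes for ARF GTPases and their exchange factor, and 6 tethers and SNAREs.

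The libraries came from mouse B cells that had divided different numbers of times in living hosts after LPS, a component of the bacterial outer membrane that makes B cells divide and secrete antibody. According to the design text, splenic B220+ CD43- B cells of naive C57/BL6J donors carried a division dye, CFSE or CTV. They were placed in uMT hosts, which lack mature B cells of their own, and rested overnight before LPS. The sample labels give spleen, female, 8 weeks of age and the strain B6.SJL-Ptprca Pepcb/BoyJ, without saying which of these hold for donor and which for host. On day 3 after LPS, 40000 cells of each group were sorted by dye dilution. Div0, Div1, Div3 and Div5 had divided as often as the name says. Div8neg and Div8pos had both divided at least 8 times, and were CD138- and CD138+ in the sort. CD138 is the plasma cell surface protein encoded by Sdc1. Each group has 2 libraries, 1 from host 196 and 1 from host 197, and the hosts give all 6 groups. Values of a pair are given in that order of hosts. All groups share the transfer, the dye and LPS, so none is an unstimulated sample.

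COPII vesicles carry newly made proteins out of the ER. The GTPase SAR1 is loaded at the ER membrane by PREB and brings in the inner coat, made of SEC23 and the cargo-binding SEC24, and then the outer cage of SEC13 and SEC31. COPI vesicles, built from the 7-part coatomer on the GTPase ARF1, carry escaped ER proteins and receptors back from the Golgi. Plasma cells are known for a large ER and for heavy traffic of antibody through this route.

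Values are given on 2 scales. CPM, the counts of a gene scaled to a common library size with TMM, compare a gene with all other genes of its library, and fold changes on this scale are called relative. The deposited mRNAs per cell are scaled to spike-in RNA and to the exon length of each gene. They compare cells with each other. Genes are compared only as far as that length fits the transcripts expressed, which was not tested. A gene was called at an adjusted p below 0.05 (Benjamini-Hochberg over all 12026 genes tested), from edgeR's quasi-likelihood test for relative changes and from limma for changes per cell. Errors of fold changes are SE. For edgeR the SE was worked back from the test, as the absolute log2 fold change divided by the square root of the F statistic. When the counts were instead scaled to the spike-in RNA, the median over all genes moved to 0.74 for Div1 against Div0 and to -0.08 for Div3 against Div1 on the log2 scale. It was 0.53 for Div5 against Div3, 0.49 for Div8neg against Div5, 1.68 for Div8neg against Div0, 0.60 for Div8pos against Div8neg and 2.23 for Div8pos against Div0, so a relative fall need not be a fall per cell. The p-values rest on 2 hosts per group, and on cells of each group sorted from the same 2 animals.

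The libraries held between 11541406 and 14961666 gene counts and between 113723 and 683173 spike-in counts, with 2 libraries in every group. Sdc1 checked the sort: it held 331 and 310 CPM in the Div8pos libraries, against 3.56 and 5.89 CPM in the Div8neg libraries. The summed CPM of 8 B cell markers was 1060 to 1097 in Div8pos, 6294 to 6480 in Div8neg and 8897 to 8972 in Div0. The summed CPM of 6 plasma cell markers was 5083 to 5161 in Div8pos, 644 to 770 in Div8neg and 409 to 446 in Div0. The T cell list of 8 genes summed to 33.8 to 43.8 CPM in Div8pos and 2.44 to 2.90 CPM in Div8neg. Of this, Cd28 made up 31.9 and 42.4 CPM in Div8pos, whereas the defining markers Cd3d, Cd3e and Cd3g lay between 0 and 0.264 CPM there. The myeloid list summed to 30.3 to 32.6 CPM in Div8pos and 128 to 166 CPM in Div8neg. The part of these cells in the values below was not tested.

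Gene starts are shown first, as a short sequence recurs among them. Whether it has a part in the levels described below was not tested. TGACGTGG is a site known to be bound by XBP1 and ATF6, transcription factors of the unfolded protein response. It was searched on both strands, so it is also read as CCACGTCA, in 300-base windows that run from 250 bases before the start of transcription to 50 bases after it (RefSeq, build GRCm38.p6). A window was found for 36 of the 42 genes. Those not matched were Arcn1, Ctage5, Golgb1, Tmed2, Kdelr2 and Lman1. The site was present in 8 of the 36 (22.2%), namely Sec23a, Sec24d, Kdelr3, Copb1, Copb2, Arf1, Gbf1 and Stx5a. Among all 12026 genes tested, 9601 had a window, and 99 of these (1.03%) held the site. The 6-letter core CCACGT lies within the site when it is read on one strand. It was present in 21 of the 36 (58.3%), against 13.1% of the tested genes with a window. The cyclic AMP response core TGACGTCA was present in 1 of the 36, Cope (2.78%), against 3.67% of the tested genes. ERSE is a pair of parts, CCAAT and CCACG, 9 bases apart, and ERSE-II is ATTGG and CCACG, 1 base apart. Each was found in 0 of the 36, against 0.187% and 0.0833% of the tested genes. These are matches of letters, and no binding was measured.

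Windows are printed whole for Sec24d, Kdelr3 and Sec23a, the 3 of the 8 genes with the site that changed most in Div8pos against Div8neg. These 3 were picked among genes with the site, so they do not show how often a large change goes with it. Gbf1 and Arf1, which also hold it, rose by 0.67 and 0.73, and Sec24a and Kdelr1, without it, changed more than Sec23a. The window of Copg2, whose relative change ran the other way, is printed too. All windows are in the direction of transcription, with the site in capitals. They lie at chr3:123267246-123267545 on the plus strand (Sec24d), chr15:79516158-79516457 on the plus strand (Kdelr3), chr12:59011968-59012267 on the minus strand (Sec23a) and chr6:30896745-30897044 on the minus strand (Copg2).
Sec24d: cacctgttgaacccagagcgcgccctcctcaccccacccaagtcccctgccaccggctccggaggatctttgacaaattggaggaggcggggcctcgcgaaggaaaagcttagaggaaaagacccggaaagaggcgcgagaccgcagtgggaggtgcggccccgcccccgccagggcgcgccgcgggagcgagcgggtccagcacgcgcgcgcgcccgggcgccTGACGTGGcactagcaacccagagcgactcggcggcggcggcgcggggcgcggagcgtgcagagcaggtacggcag
Kdelr3: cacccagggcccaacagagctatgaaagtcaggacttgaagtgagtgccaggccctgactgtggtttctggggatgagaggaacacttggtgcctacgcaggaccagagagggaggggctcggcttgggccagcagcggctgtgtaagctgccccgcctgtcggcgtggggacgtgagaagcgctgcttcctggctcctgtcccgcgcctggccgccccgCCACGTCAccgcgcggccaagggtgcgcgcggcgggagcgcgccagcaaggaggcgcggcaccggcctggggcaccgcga
Sec23a: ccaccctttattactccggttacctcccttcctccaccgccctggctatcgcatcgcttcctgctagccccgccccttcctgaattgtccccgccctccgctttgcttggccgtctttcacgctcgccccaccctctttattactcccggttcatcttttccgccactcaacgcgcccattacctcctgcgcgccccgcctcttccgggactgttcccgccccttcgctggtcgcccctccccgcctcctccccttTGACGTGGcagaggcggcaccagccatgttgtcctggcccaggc
Copg2: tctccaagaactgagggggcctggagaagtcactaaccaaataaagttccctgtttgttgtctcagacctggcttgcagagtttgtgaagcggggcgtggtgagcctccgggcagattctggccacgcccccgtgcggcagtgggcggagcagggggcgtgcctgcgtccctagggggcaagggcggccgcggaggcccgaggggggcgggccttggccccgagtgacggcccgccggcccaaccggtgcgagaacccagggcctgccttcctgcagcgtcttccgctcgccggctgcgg
The site began 26 bases before the start in Sec24d, 30 bases before it in Kdelr3, and at base 7 after it in Sec23a. The Copg2 window held none of the motifs searched. Neither did those of Sec24a, Sec23b, Kdelr1, Surf4, Lman2, Bet1, Copa, Golga2, Mia3, Preb, Sar1b, Sec16a and Sec22b. All of these latter genes were higher in Div8pos than in Div8neg. The window of Sec24b, the other gene called lower there relative to all genes (with spike-in scaling its sign turns), held the core CCACGT.

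For the other 5 genes with the site, 32 bases around it are shown, again with the site in capitals, so that its neighbours can be compared.
Copb1: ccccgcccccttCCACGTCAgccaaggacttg
Copb2: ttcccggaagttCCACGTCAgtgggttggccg
Gbf1: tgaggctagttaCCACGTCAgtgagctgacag
Arf1: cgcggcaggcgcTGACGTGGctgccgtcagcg
Stx5a: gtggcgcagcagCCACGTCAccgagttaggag
The stretches lie at chr7:114254689-114254720 on the minus strand (Copb1), chr9:98563712-98563743 on the plus strand (Copb2), chr19:46152534-46152565 on the plus strand (Gbf1), chr11:59228227-59228258 on the minus strand (Arf1) and chr19:8741421-8741452 on the plus strand (Stx5a). The site began 28 bases before the start in Copb1, 7 bases before it in Copb2 and 12 bases before it in Gbf1. In Stx5a it began at base 10 after the start, and the window held a second match further on. Arf1 has overlapping windows for 2 starts, and its match is 84 bases before one and 22 bases after the other.

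The main difference lay between the CD138+ and CD138- cells that had divided at least 8 times. Of the 42 genes, 40 were higher and 2 lower in Div8pos than in Div8neg relative to all genes, and every one was called. The background was 36.7% of all genes tested called higher and 35.4% called lower, or 72.1% in all. The median log2 fold change was 1.09 over the members and 0.01 over all genes. By CPM, both Div8pos libraries lay above all the other 10 libraries for 39 of the 42 genes, against 34.5% of all genes tested. The exceptions were Golgb1, Copg2 and Sec24b. Against Div0, 40 members were higher and 2 lower in Div8pos (background 40.2% and 42.2%, 82.4% in all), with a median log2 fold change of 1.61 over the members and -0.04 over all genes. Sec24d was 50.7-fold, Lman1 12.2-fold, Sec24a 10.1-fold and Kdelr2 8.50-fold higher in Div8pos than in Div0. The 2 lower ones were Copg2 at -1.30 ± 0.07 and Sec24b at -0.32 ± 0.05, whose signs turned with spike-in scaling, to 0.97 and 1.95. Both comparisons share the Div8pos libraries.

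**Figure D1:**
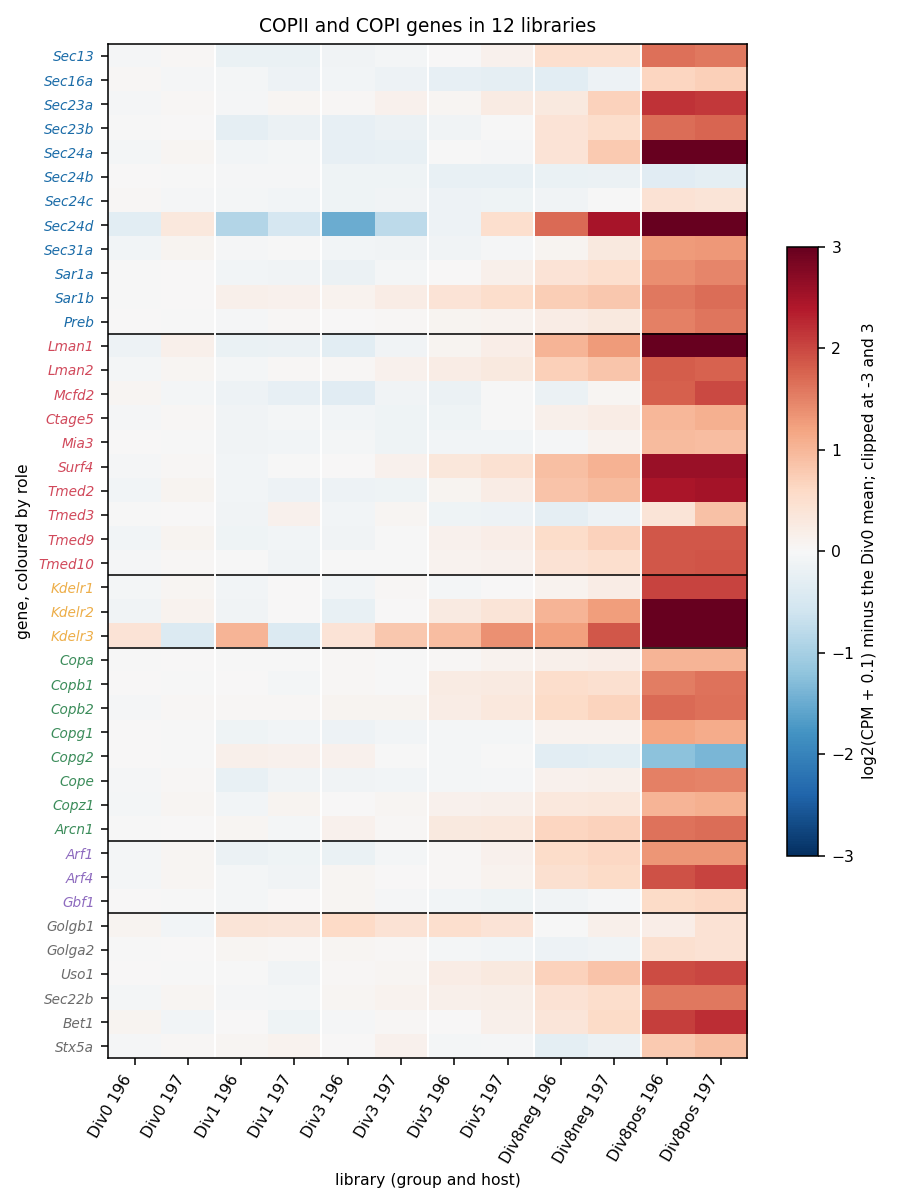
Relative level of each of the 42 genes (rows, coloured by role) in the 12 libraries (columns, Div0 to Div8pos, hosts 196 and 197), as log2(CPM + 0.1) minus the mean of the Div0 libraries, clipped at -3 and 3. The Div8pos columns are red for nearly every gene, and Copg2 and Sec24b are lower than in Div0 there on this relative scale (with spike-in scaling both lie above Div0).

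Per cell, the members together gave 119 ± 18.3 mRNAs in Div0, 193 ± 48.4 in Div1, 184 ± 30.8 in Div3, 289 ± 13.7 in Div5, 517 ± 53.8 in Div8neg and 1770 ± 124 in Div8pos (SD, n = 2 each). Their part of all mRNAs was 0.392% in Div0, 0.375% in Div1, 0.378% in Div3, 0.405% in Div5, 0.515% in Div8neg and 1.09% in Div8pos. It stayed level over the early groups, while the number per cell already differed between Div1 and Div0 along with that of all mRNAs. In Div8pos the members' sum was 3.46 ± 0.599 times that in Div8neg (SD over 2 hosts), while all mRNAs together were 1.63 ± 0.233 times as many. Against Div0 the ratios were 15.1 ± 3.34 for the members and 5.44 ± 1.29 for all mRNAs. By limma per cell, 40 of the 42 were higher and 0 lower in Div8pos than in Div8neg (background 52.1% and 16.3%, 68.4% in all). The other two were Sec24b and Copg2. Per cell, both Div8pos libraries lay above all the other 10 for 41 of the 42 genes, all but Copg2, against 62.3% of all genes tested.

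Between roles, the KDEL receptors showed the highest Div8pos to Div8neg ratio of summed mRNAs per cell, 5.54 ± 1.18, and cargo receptors and exit-site organisers followed with 4.07 ± 0.745. The COPII genes gave 3.26 ± 0.598, tethers and SNAREs 3.05 ± 0.511, the COPI coat 2.83 ± 0.426, and the ARF group 2.75 ± 0.443 (SD over 2 hosts). In each host the 6 roles ranked in this same order, with the KDEL receptors first and the cargo receptors next. The last 4 lay within 1 SD of their neighbours. That SD is a spread between hosts, which all mRNAs together also showed (1.63 ± 0.233), so it is not the error of a difference between roles. With 2 hosts the order was not tested. A bulk measure cannot tell more mRNA per cell from a larger part of cells that express a gene.

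**Figure D2:**
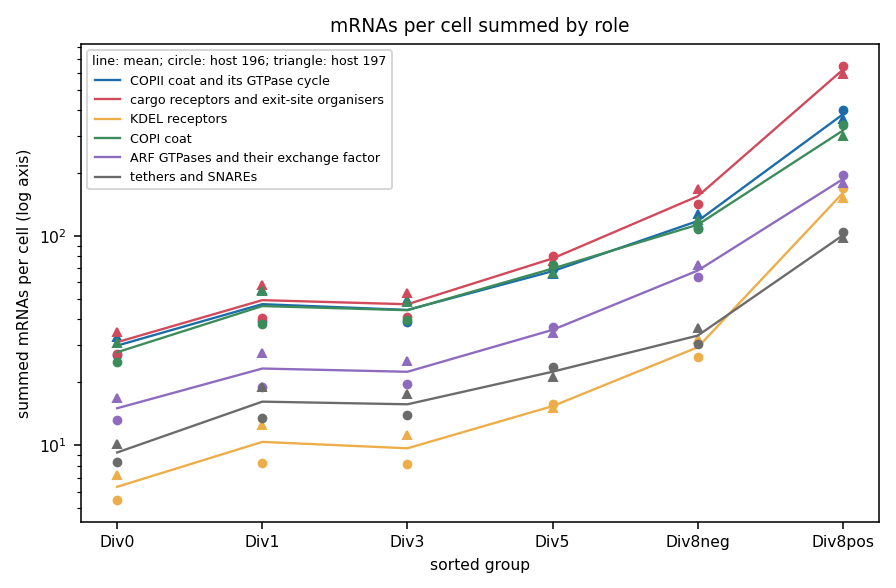
mRNAs per cell (log axis) summed over the genes of each role, by sorted group from Div0 to Div8pos. Lines join means, circles are host 196 and triangles host 197. The lines run nearly level from Div1 to Div3 and climb most between Div8neg and Div8pos, where the 3 KDEL receptors reach 160 mRNAs per cell, against 29.4 in Div8neg.

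Within COPII, the cargo-binding SEC24 subunits differed most. Sec24d held 409 and 413 CPM in the Div8pos libraries, against 26.2 and 45.2 CPM in the Div8neg libraries. In the earlier groups it held 6.402 and 10.004 CPM in Div0, 4.32 and 5.57 in Div1, 2.77 and 4.57 in Div3 and 7.15 and 11.5 in Div5. The Div8pos libraries lay far above all others, and the Div8neg pair, though its hosts differed, lay above every earlier library. The change between Div8pos and Div8neg was 3.53 ± 0.17 on the log2 scale (SE), 11.6-fold, with an adjusted p of 3.17e-11.

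Sec24a held 396 and 432 CPM in the Div8pos libraries, against 54.8 and 70.1 CPM in the Div8neg libraries. Its earlier values were 39.2 and 42.8 CPM in Div0, 38.7 and 39.5 in Div1, 34.7 and 35.1 in Div3 and 40.9 and 39.7 in Div5. The Div3 pair was the lowest, the Div8neg pair lay above every earlier library and the Div8pos pair far above. The relative change was 2.73 ± 0.09 on the log2 scale (SE), 6.65-fold, with an adjusted p of 1.58e-13. Sec24c, the most abundant SEC24 mRNA in the first 5 groups, held 422 and 409 CPM in the Div8pos libraries, against 288 and 308 CPM in the Div8neg libraries. The log2 fold change was 0.48 ± 0.05 (adjusted p = 4.84e-07), less than that of Sec24a and Sec24d. Sec24b was the one SEC24 gene that did not rise relative to all genes. It held 108 and 111 CPM in the Div8pos libraries, against 120.0 and 120.4 CPM in the Div8neg libraries, and its earlier values were 138 and 136 CPM in Div0, 133 and 134 in Div1, 124 and 125 in Div3 and 117 and 117 in Div5. It was called lower, at -0.13 ± 0.05 (adjusted p = 0.0304), a call lost with DESeq2 (adjusted p = 0.208) and without the count filter (0.154). With spike-in scaling its sign turned, to 0.45, and per cell it held 9.20 and 8.43 mRNAs in Div8pos, against 6.33 and 6.90 in Div8neg.

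The makeup of the SEC24 pool differed between the groups. Shares were taken from the mRNAs per cell and tested with an exact permutation test over all 10395 ways to pair the 12 libraries. There were 17 shares in 9 families, with Benjamini-Hochberg adjustment (the smallest p the test can give is 9.6e-05). The test asks whether the 6 groups differ anywhere, not which group differs, and it does not pair the hosts. Shares within a family depend on each other, as they sum to the whole. A family here holds only listed members, so further TMED, LMAN and ARF genes are left out. Sec24d made up 2.01%, 1.27%, 0.983%, 2.53%, 8.44% and 41.0% of SEC24 mRNA in Div0, Div1, Div3, Div5, Div8neg and Div8pos (adjusted p = 0.00382, exact permutation test). In Div8pos its share was 40.95% and 41.09% in the hosts, against 6.58% and 10.3% in Div8neg. Sec24a made up 3.25% in Div0, 4.83% in Div8neg and 13.4% in Div8pos (adjusted p = 0.00382, exact permutation test). Sec24c, at 66.6% in Div0 and 62.5% in Div8neg, made up 36.4% in Div8pos (0.00416). Sec24b, at 28.1% in Div0 and 24.2% in Div8neg, made up 9.21% in Div8pos (0.00164). The shares of Sec24a and Sec24d together were thus high in Div8pos, and those of Sec24b and Sec24c low, with no overlap between the Div8pos libraries and any other. The size of each share rests on exon length, 12191 bases for Sec24a, 4515 for Sec24c and 3956 for Sec24d. By CPM these genes were about level in Div8pos. No 50-base stretch of annotated transcripts was shared between paralogs of any of the 9 families, so reads of the length used here, if matched whole, separate them.

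SEC23, the inner-coat partner of SEC24, showed less of this. Sec23a held 113 and 109 CPM in the Div8pos libraries, against 30.4 and 40.4 CPM in the Div8neg libraries. Its earlier values were 24.2 and 25.5 CPM in Div0, 24.1 and 25.9 in Div1, 25.4 and 27.3 in Div3 and 25.8 and 29.2 in Div5. The Div8pos pair was the highest, and the relative change was 1.65 ± 0.10 on the log2 scale (SE), 3.14-fold, with an adjusted p of 3.35e-10. Sec23b held 262 and 272 CPM in the Div8pos libraries, against 108 and 117 CPM in the Div8neg libraries, and its log2 fold change was 1.24 ± 0.06 (adjusted p = 1.9e-11). Both paralogs rose. The share of Sec23a was 17.0% in Div0, 19.5% in Div1, 20.04% in Div3, 19.1% in Div5, 17.4% in Div8neg and 21.8% in Div8pos (adjusted p = 0.0223, exact permutation test). Without the Div8pos library of host 196 the adjusted p was 0.098.

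The 2 SAR1 GTPases moved nearly in step. Sar1a held 289 and 303 CPM in the Div8pos libraries, against 145 and 155 CPM in the Div8neg libraries, and its log2 fold change was 0.98 ± 0.06 (adjusted p = 6.16e-10). Sar1b held 68.9 and 73.9 CPM in the Div8pos libraries, against 38.2 and 40.4 CPM in the Div8neg libraries, and its log2 fold change was 0.86 ± 0.07 (adjusted p = 2.75e-08). The Sar1a share was 69.7% in Div0, 66.3% in Div1, 65.5% in Div3, 63.7% in Div5, 64.8% in Div8neg and 66.6% in Div8pos (adjusted p = 0.00164, exact permutation test). The range over groups is small, but the SD between hosts was only 0.0821 to 0.395 points. The rest of the COPII group, Sec13, Sec31a, Preb and the exit-site scaffold Sec16a, rose by 0.91 to 1.31 on the log2 scale in Div8pos against Div8neg. Sec13, an outer-cage subunit that is also part of the nuclear pore, held 328 and 313 CPM in the Div8pos libraries, against 147 and 147 CPM in the Div8neg libraries. Sec16a held 410.0 and 434 CPM in the Div8pos libraries, against 210.4 and 238 CPM in the Div8neg libraries.

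The COPII layers can be set against each other per exon length, and their order and spread rest on those lengths. By CPM, Sec31a (4228 bases) held 445 and 458 in the Div8pos libraries, above Sec13 (1301 bases) at 328 and 313. In Div8pos the mean mRNAs per cell were 95.7 ± 7.46 for the 4 SEC24 genes, 93.3 ± 11 for Sec13, 64.5 ± 2.97 for the 2 SAR1 genes, 46.7 ± 3.13 for the 2 SEC23 genes and 40.4 ± 2.55 for Sec31a (SD, n = 2). In Div8neg they were 27.4 ± 3.53 for SEC24, 29.2 ± 1.63 for Sec13, 23.1 ± 2.38 for SAR1, 12.8 ± 1.79 for SEC23 and 12.9 ± 2.02 for Sec31a (SD, n = 2). The most abundant of these 5 exceeded the least abundant 2.35 to 2.40 times in the Div8pos libraries, 2.16 to 2.45 times in the Div8neg libraries and 2.85 to 2.96 times in the Div0 libraries.

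**Figure D3:**
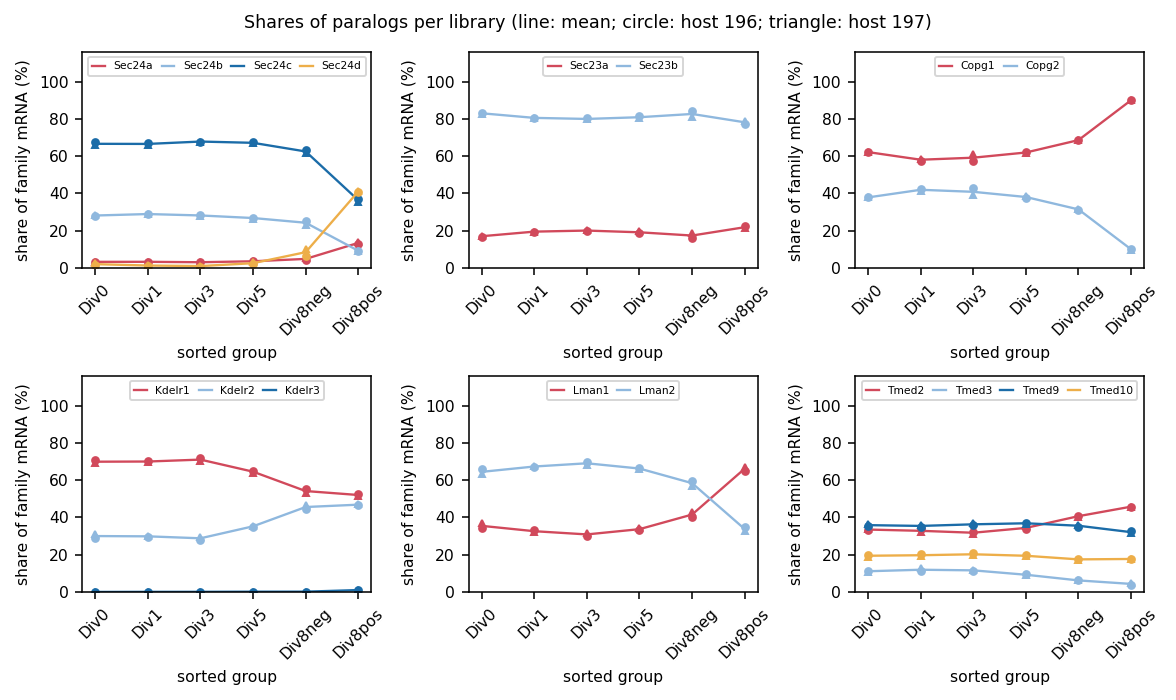
Share of each paralog in the mRNAs per cell of its family (percent, listed members only), by sorted group from Div0 to Div8pos. Panels show SEC24, SEC23, COPG, KDEL receptor, LMAN and TMED genes. Lines join means, circles are host 196 and triangles host 197. Sec24d and Sec24c cross between Div8neg and Div8pos, as do Lman1 and Lman2, and Copg1 reaches 90.0% in Div8pos. The crossings rest on the exon lengths in this scale. By CPM, Sec24c and Sec24d were about level in Div8pos, as were Lman1 and Lman2.

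All 10 cargo receptors and exit-site organisers rose in Div8pos against Div8neg, by 0.85 to 2.46 on the log2 scale. LMAN1, a lectin that carries glycoproteins out of the ER together with its partner MCFD2, led them. Lman1 held 722 and 762 CPM in the Div8pos libraries, against 122 and 148 CPM in the Div8neg libraries. Its earlier values were 54.9 and 66.7 CPM in Div0, 52.4 and 53.6 in Div1, 48.8 and 55.8 in Div3 and 64.2 and 69.8 in Div5. The Div8neg libraries stood above all earlier ones and the Div8pos libraries above those, and the relative change was 2.46 ± 0.09 on the log2 scale (SE), 5.51-fold, with an adjusted p of 9.97e-13.

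Mcfd2 stood apart from its other values only in Div8pos. It held 92.7 and 105 CPM in the Div8pos libraries, against 23.6 and 27.7 CPM in the Div8neg libraries, and 27.8 and 25.5 CPM in Div0, 23.9 and 22.6 in Div1, 21.1 and 24.8 in Div3 and 23.6 and 26.4 in Div5. Its Div8neg values overlapped those of the early groups, so that only the Div8pos pair stood apart, at 1.94 ± 0.10 on the log2 scale (SE), 3.85-fold, with an adjusted p of 3.23e-11. Per cell, Mcfd2 gave 16.3 and 16.4 mRNAs in Div8pos, against 77.8 and 73.0 for Lman1. Lman2, a related lectin, held 757 and 731 CPM in the Div8pos libraries, against 356 and 386 CPM in the Div8neg libraries. The Lman1 share of the 2 lectins was 35.5% in Div0, 32.6% in Div1, 30.9% in Div3, 33.7% in Div5, 41.6% in Div8neg and 66.2% in Div8pos (adjusted p = 0.00164, exact permutation test). Its size rests on exon lengths of 3714 bases for Lman1 and 7303 for Lman2, and by CPM these genes were about level in Div8pos.

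Surf4, a receptor for many soluble secreted proteins, was among the most abundant members. It held 975 and 975 CPM in the Div8pos libraries, against 303 and 334 CPM in the Div8neg libraries. Its earlier values were 159.5 and 165 CPM in Div0, 152 and 162 in Div1, 164 and 178 in Div3 and 204 and 224 in Div5. The pairs lay in the order of the groups from Div3 on, with no overlap, and the Div8pos to Div8neg change was 1.62 ± 0.06 on the log2 scale (SE), 3.06-fold, with an adjusted p of 1.96e-12. Among the p24 proteins, which cycle in both kinds of vesicle, Tmed2 held 750.0 and 778 CPM in the Div8pos libraries, against 250.2 and 267 CPM in the Div8neg libraries, a change of 1.56 ± 0.06 (adjusted p = 3.31e-12). Tmed9 and Tmed10 rose by 1.24 and 1.41, and Tmed3 by 0.87 with the widest error of the 4 (SE 0.13). The Tmed2 share of the 4 was 33.5% in Div0, 40.7% in Div8neg and 45.8% in Div8pos (adjusted p = 0.00382), while that of Tmed3 was 11.1% in Div0, 6.22% in Div8neg and 4.34% in Div8pos (0.0036, both by exact permutation test). Mia3 and Ctage5, whose products act at exit sites in the export of large cargo such as collagen, rose by 0.90 and 0.85. The share of Mia3 did not pass the test (37.3% in Div0, 34.8% in Div8neg and 35.7% in Div8pos, adjusted p = 0.193, exact permutation test).

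KDEL receptors bring ER chaperones back from the Golgi. Kdelr1 held 337 and 337 CPM in the Div8pos libraries, against 90.1 and 97.1 CPM in the Div8neg libraries. Its earlier values were 80.2 and 86.2 CPM in Div0, 78.4 and 83.7 in Div1, 78.7 and 85.1 in Div3 and 79.9 and 84.4 in Div5. Its early libraries overlapped, and only the Div8pos pair stood well above, at 1.85 ± 0.06 on the log2 scale (SE), 3.6-fold, with an adjusted p of 3.43e-13.

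Kdelr2 was called higher in Div5 than in Div3, a call lost without the Div3 library of host 196 (adjusted p = 0.0864) or the Div5 library of host 197 (0.0875). It held 363 and 373 CPM in the Div8pos libraries, against 88.0 and 104 CPM in the Div8neg libraries, and 39.9 and 46.9 CPM in Div0, 40.3 and 43.6 in Div1, 37.0 and 43.9 in Div3 and 51.9 and 57.0 in Div5. The Div5 pair lay above the 6 earlier libraries, the Div8neg pair above Div5 and the Div8pos pair above Div8neg. The last of these changes was 1.94 ± 0.09 on the log2 scale (SE), 3.84-fold, with an adjusted p of 9.08e-12. The Kdelr2 share of the family was 30.0% in Div0, 28.8% in Div3, 35.3% in Div5, 45.6% in Div8neg and 46.9% in Div8pos (adjusted p = 0.00416, exact permutation test).

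Kdelr3 was the rarest of the 42. Its libraries held 79 and 71 counts in Div8pos and 3 and 5 in Div8neg. Earlier there were 1 and 0 counts in Div0, 2 and 0 in Div1, 1 and 2 in Div3, and 2 and 3 in Div5. The gene was thus near the limit of detection in every group except Div8pos, where it still gave only 1.79 and 1.57 mRNAs per cell. The fitted change from Div8neg was 4.38 ± 0.41 on the log2 scale (SE), 20.9-fold, with an adjusted p of 8.74e-08, the highest among the members. From the counts alone the ratio was 21.5, with a 95% interval of 10.7 to 50.8. Against the single count in Div0 the ratio was 158, with an interval of 27.9 to 6280. The intervals (exact binomial) cover counting error only. Between Div8neg and Div0 edgeR called it higher (adjusted p = 0.0448), but the counts, 8 against 1, give a ratio of 7.33 with an interval of 0.983 to 325.

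In the COPI coat, 7 of 8 genes rose in Div8pos against Div8neg, by 0.71 to 1.36, and Copg2 was lower relative to all genes but not called with spike-in scaling (-0.41). Copg1 and Copg2 encode alternative gamma subunits of coatomer. Copg1 held 453 and 427 CPM in the Div8pos libraries, against 213 and 212 CPM in the Div8neg libraries, a change of 1.05 ± 0.05 (adjusted p = 2.49e-11). Copg2 held 35.3 and 32.4 CPM in the Div8pos libraries, against 67.5 and 67.7 CPM in the Div8neg libraries, and 83.9 and 83.4 CPM in Div0, 93.6 and 91.1 in Div1, 92.1 and 82.5 in Div3 and 79.9 and 82.7 in Div5. The Div8pos libraries were the lowest and the Div8neg libraries the next lowest, without overlap. The change was -0.996 ± 0.073 (adjusted p = 4.56e-09), or 1.99-fold lower. Per cell, Copg2 gave 4.53 and 3.69 mRNAs in Div8pos, against 5.36 and 5.84 in Div8neg, which was not called (log2 fold change -0.44 ± 0.22, SE, adjusted p = 0.0703 by limma). The Copg1 share of gamma subunit mRNA was 62.2% in Div0, 58.1% in Div1, 59.2% in Div3, 61.9% in Div5, 68.6% in Div8neg and 90.0% in Div8pos (adjusted p = 0.00382, exact permutation test).

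The other COPI subunits changed by similar amounts. Cope rose by 1.36, Copb1 by 1.07, Copb2 by 1.05, Arcn1 by 0.98, Copa by 0.84 and Copz1 by 0.71 on the log2 scale relative to all genes. With the gamma genes summed, the 7 coatomer positions lay between 37.8 and 66.7 mean mRNAs per cell in Div8pos and between 10.1 and 22.0 in Div8neg. Copb2, the beta prime subunit, was the highest of the 7 in both groups on this scale. That order rests on exon length, 3043 bases for Copb2 and 8765 for Copa. By CPM, Copa held 886 and 877 in Div8pos, above Copb2 at 542 and 530. In Div8neg it held 485 and 496 CPM, against 252 and 265 for Copb2. In mRNAs per cell, the highest position exceeded the lowest 1.76 and 1.77 times in the Div8pos libraries. The ratios were 2.14 and 2.22 in the Div8neg libraries and 2.06 and 1.96 in the Div0 libraries. On this scale the spread among subunits was thus narrower in both Div8pos libraries than in any of the other 10, whose ratios ran from 1.96 to 2.32. The size of these ratios rests on exon length too.

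The ARF GTPases recruit the COPI coat once GBF1 has loaded them. All 3 genes rose in Div8pos against Div8neg, Arf4 by 1.44, Arf1 by 0.73 and Gbf1 by 0.67. The share of Arf4 in the sum of Arf1 and Arf4 was 32.5% in Div8pos, against 22.8% in Div8neg and 23.5% in Div0 (adjusted p = 0.015 for the pair, exact permutation test).

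Tethers hold an arriving vesicle at the Golgi and SNAREs fuse it. All 6 genes rose in Div8pos against Div8neg, by 0.26 to 1.67. Bet1, a SNARE, held 43.7 and 47.7 CPM in the Div8pos libraries, against 13.3 and 15.4 CPM in the Div8neg libraries. Its earlier values were 10.8 and 9.75 CPM in Div0, 10.4 and 9.33 in Div1, 10.1 and 10.6 in Div3 and 10.3 and 11.4 in Div5. The early libraries overlapped, and the change to Div8pos was 1.67 ± 0.10 on the log2 scale (SE), 3.19-fold, with an adjusted p of 5.31e-10.

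Stx5a, the Golgi syntaxin that pairs with BET1 and SEC22B, held 149 and 163 CPM in the Div8pos libraries, against 70.9 and 77.3 CPM in the Div8neg libraries, and 84.5 and 89.1 CPM in Div0, 90.5 and 93.7 in Div1, 88.2 and 94.5 in Div3 and 83.8 and 84.1 in Div5. The Div8neg libraries were the lowest of the 12 and the Div8pos libraries the highest. Relative to all genes Stx5a was called lower in Div8neg than in Div5, at -0.18 ± 0.07 (adjusted p = 0.0353), and higher in Div8pos than in Div8neg, at 1.07 ± 0.07 (adjusted p = 5.07e-10). The first of these calls was lost with DESeq2 (adjusted p = 0.0654), without either Div5 library (0.112 without host 196 and 0.111 without host 197) and without the Div8neg library of host 196 (0.287), and with spike-in scaling it turned to 0.32.

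The tether Golgb1 (giantin) had its highest mean CPM in Div3 and Div5, and per cell it was highest in Div8pos (4.73 and 4.93 mRNAs). It held 131 and 154 CPM in the Div8pos libraries, against 112 and 126 CPM in the Div8neg libraries, and 119.6 and 107 CPM in Div0, 147 and 146 in Div1, 173 and 153 in Div3 and 161 and 151 in Div5. Relative to all genes it was called higher in Div1 than in Div0, at 0.37 ± 0.09 (adjusted p = 0.0127), and lower in Div8neg than in Div5, at -0.39 ± 0.08 (adjusted p = 0.00112), where spike-in scaling gave 0.10. In Div8pos against Div8neg it was called higher, at 0.26 ± 0.09 (adjusted p = 0.0134) and without overlap between the groups, a call lost without the Div8neg library of host 196 (adjusted p = 0.130) or the Div8pos library of host 197 (0.188). Golga2 (GM130) held 147 and 144 CPM in the Div8pos libraries, against 95.2 and 98.2 CPM in the Div8neg libraries.

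**Figure D4:**
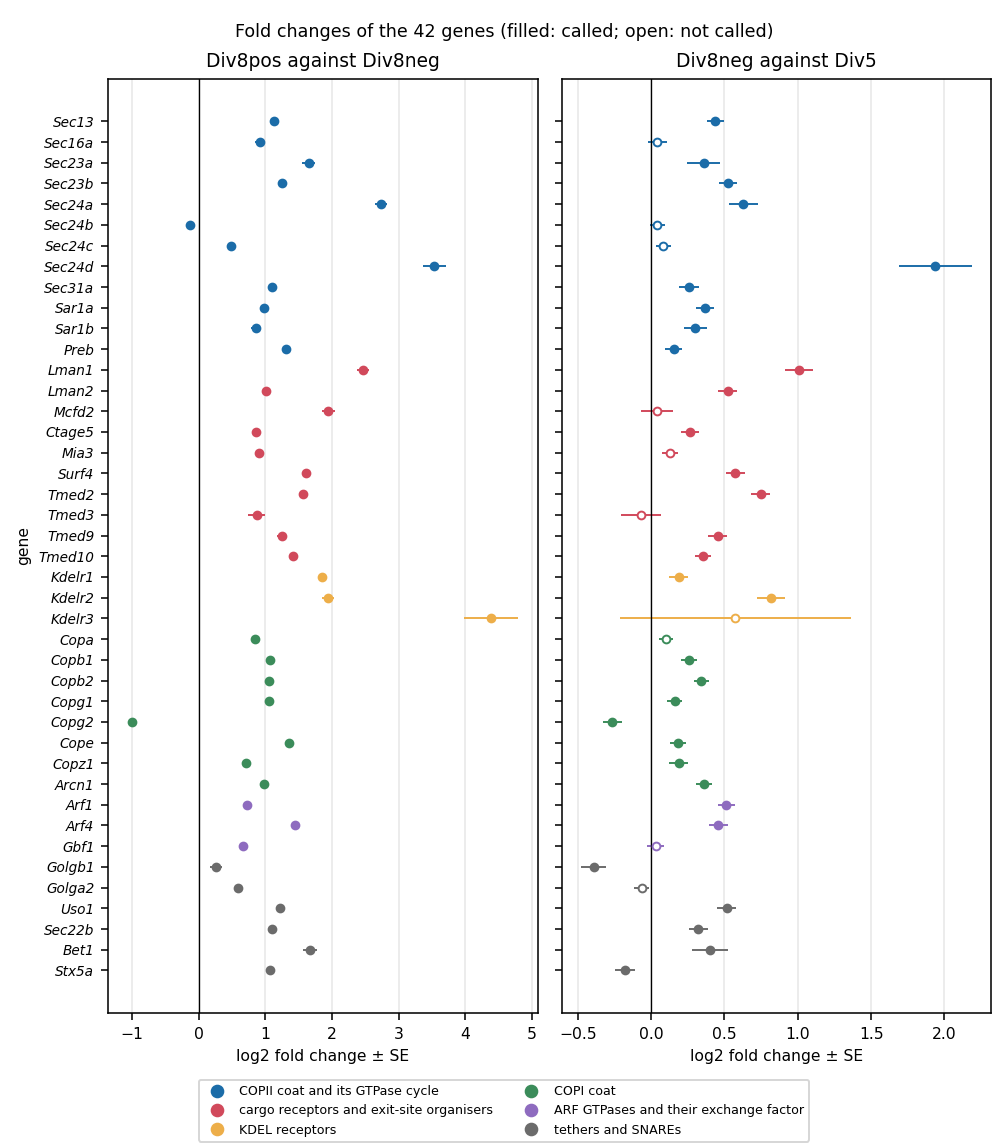
Relative log2 fold change of each of the 42 genes (points, bars ± SE, colours by role), left for Div8pos against Div8neg and right for Div8neg against Div5, on different axes. Filled points were called and open points were not. In the left panel all points are filled and all but Copg2 and Sec24b lie right of 0 (with spike-in scaling Sec24b lies right of 0 too). In the right panel Sec24d, Lman1 and Kdelr2 lead.

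The earlier steps were small by comparison. In Div1 against Div0, 1 member was higher and 2 were lower relative to all genes, with 39 not called (background 5.44% higher and 3.91% lower). The higher one was Golgb1. The lower ones were Sec13 at -0.20 ± 0.06 (adjusted p = 0.0481) and Sec23b at -0.23 ± 0.06 (adjusted p = 0.0364), neither of them called by DESeq2 or when Div1 and Div0 were fitted by themselves, and with signs that turned under spike-in scaling, to 0.54 and 0.52. The Golgb1 call was lost when any 1 of the hosts' Div1 libraries or the Div0 library of host 197 was left out. Per cell, 40 of the 42 were higher in Div1 than in Div0 (background 77%), a count that fell to 1 without the Div0 library of host 196 or without the Div1 library of host 197. In Div3 against Div1, 0 members were called relative to all genes (background 1.9% higher and 1.51% lower, 3.42% in all). No member had an unadjusted p below 0.05 with edgeR there, and DESeq2 called 0 as well. Per cell, 0 were called by limma (0.208% and 0.308%).

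In Div5 against Div3, 13 members were higher and 0 lower relative to all genes, with 29 not called (background 14.2% higher and 12.4% lower). They were Sec24d, Sar1a and Sar1b, the receptors Lman1, Surf4, Tmed2, Tmed9 and Kdelr2, the coatomer genes Copb1, Copb2 and Arcn1, and Arf1 and Uso1. Among these called genes, the 5 with the highest changes were Sec24d at 1.31 ± 0.37 (adjusted p = 0.0175), Kdelr2 at 0.42 ± 0.10 (adjusted p = 0.0069), Lman1 at 0.35 ± 0.10 (adjusted p = 0.0207), Surf4 at 0.32 ± 0.07 (adjusted p = 0.00249) and Tmed2 at 0.31 ± 0.07 (adjusted p = 0.00389). All 5 were higher in Div5 in both hosts, which their choice as the largest called changes makes likely. The count rests on few libraries: it was 4 without the Div3 library of host 196 and 0 without the Div5 library of host 197. Per cell, 32 were higher (background 42.7% higher, 43.2% called in all), and 1 without the Div3 library or the Div5 library of host 196, 5 without the Div5 library of host 197, and 0 with no filter on low values.

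In Div8neg against Div5, 29 members were higher, 3 lower and 10 not called relative to all genes (background 26.9% higher and 26.6% lower, 53.4% in all). The median log2 fold change was 0.31 over the members and 0.00 over all genes. The number of members higher fell when any library of Div5 or Div8neg was left out. By role, 9 of 12 COPII genes, 7 of 10 cargo receptors and organisers, 2 of 3 KDEL receptors, 6 of 8 COPI genes, 2 of 3 ARF genes and 3 of 6 tethers and SNAREs were higher. Sec24d led with 1.94 ± 0.25 (adjusted p = 1.09e-05), then Lman1 with 1.01 ± 0.10 (adjusted p = 7.61e-07) and Kdelr2 with 0.82 ± 0.09 (adjusted p = 4.5e-06). The lower ones were Golgb1, Stx5a and Copg2, the last at -0.27 ± 0.07 (adjusted p = 0.00319), and spike-in scaling turned Copg2 to 0.23. Per cell, 34 were higher and 0 lower (background 42.3% and 3.56%), and 16 without the Div5 library or 13 without the Div8neg library of host 197.

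From undivided cells to CD138- cells with at least 8 divisions, 30 members were higher and 5 lower relative to all genes in Div8neg against Div0 (background 35.3% and 35.7%). The lower ones were Sec16a, Sec24b, Copg2, Golga2 and Stx5a, and with spike-in scaling all 5 signs turned, to between 1.38 and 1.55. The Golga2 call (-0.14, adjusted p = 0.0316 by edgeR) was lost with DESeq2 (0.109), with no filter on low counts (0.0871) and with Div8neg and Div0 fitted by themselves (0.077). Leaving out host 197's Div0 library gave 3 lower members, and leaving out host 196's Div8neg library gave 2. Per cell all 42 were higher (background 88.4%), and all 42 were higher in Div8pos than in Div0 (82.5%).

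**Figure D5:**
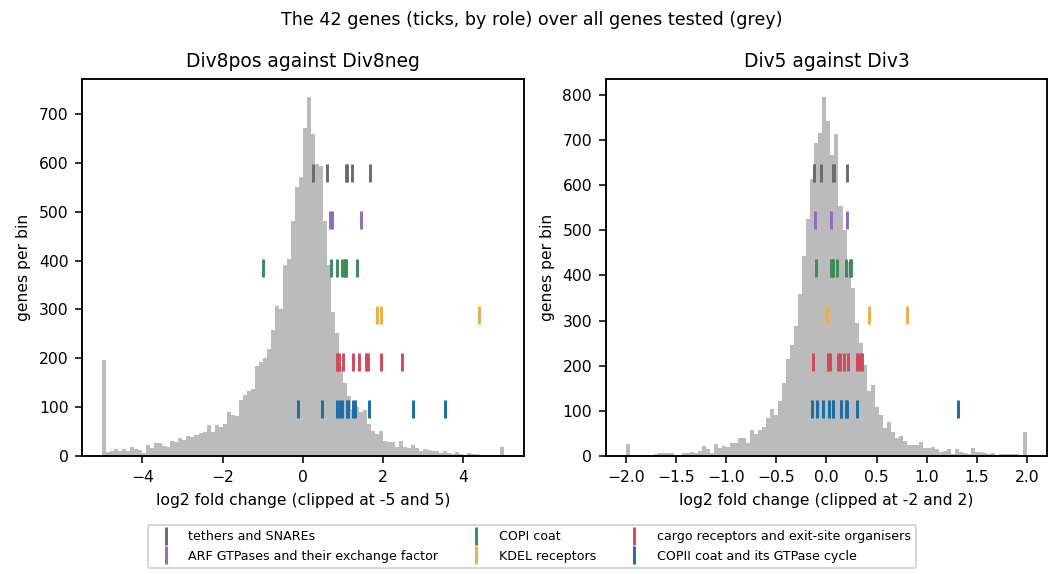
Relative log2 fold changes of all 12026 genes tested (grey histogram) with the 42 members as ticks in 6 rows by role, left for Div8pos against Div8neg (clipped at -5 and 5) and right for Div5 against Div3 (clipped at -2 and 2). On the left most ticks lie right of the main body of genes, with a median of 1.09. On the right most lie within it, and Sec24d at 1.31 and Kdelr3 at 0.80 (not called) lie furthest right.

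Other genes of ER to Golgi traffic, a list of 86 of which 83 were in the table and 81 were tested, were read in the same fits. In Div8pos against Div8neg, 47 were higher, 18 lower and 16 not called, with a median log2 fold change of 0.48. Over all genes tested, 36.7% were higher and 35.4% lower, and the median was 0.01. The 3 highest were Tmed6, a further p24 protein, Ergic1, a protein of the ER-Golgi intermediate compartment, and Arfgap3, which switches ARF1 off. Tmed6 held 11.0 and 13.5 CPM in Div8pos, against 2.58 and 2.45 CPM in Div8neg, a change of 2.27 ± 0.29 (adjusted p = 4.01e-06). Ergic1 held 475 and 455 CPM in Div8pos, against 100.3 and 111 CPM in Div8neg, a change of 2.14 ± 0.07 (adjusted p = 2.3e-13). Arfgap3 held 92.2 and 95.4 CPM in Div8pos, against 17.7 and 25.8 CPM in Div8neg, a change of 2.12 ± 0.11 (adjusted p = 9.97e-11). None of the 3 overlapped between the groups, which their choice as the largest called changes makes likely.

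Of the genes called lower relative to all genes, Sec22c, Tmed8 and Sec31b had the largest changes. Sec22c held 9.35 and 9.51 CPM in Div8pos, against 22.7 and 23.2 CPM in Div8neg, a change of -1.28 ± 0.11 (adjusted p = 4.23e-08), and per cell its change was -0.65 ± 0.21 (adjusted p = 0.00506) by limma. Its relative Sec22b, a member, rose by 1.11. Tmed8 held 52.3 and 53.2 CPM in Div8pos, against 108 and 108 CPM in Div8neg, a change of -1.03 ± 0.07 (adjusted p = 3.8e-09), and per cell -0.47 ± 0.22 (adjusted p = 0.0524). Sec31b, at the low end of what was tested, held 0.560 and 0.616 CPM in Div8pos, against 0.907 and 1.45 CPM in Div8neg, a change of -0.98 ± 0.42 (adjusted p = 0.0463), and per cell -0.18 ± 0.17 (adjusted p = 0.337). Its relative Sec31a, a member, rose by 1.10.

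Factors known to drive secretory genes were read in the same libraries. Xbp1 held 1660.4 and 1587 CPM in Div8pos, against 243 and 281 CPM in Div8neg, a change of 2.63 ± 0.09 (adjusted p = 3.8e-13). Creb3l2, a membrane-bound factor of the CREB3 family known to act on Sec23a in cartilage, held 441 and 438 CPM in Div8pos, against 35.4 and 49.6 CPM in Div8neg, a change of 3.38 ± 0.11 (adjusted p = 2.05e-13). Atf6 held 455 and 483 CPM in Div8pos, against 344 and 357 CPM in Div8neg, a change of 0.42 ± 0.06 (adjusted p = 7.36e-06). All 3 were called higher in Div8pos, as were 36.7% of all genes tested, and Atf6 rose by the least. Prdm1, which encodes the repressor BLIMP1 of plasma cells, held 329 and 321 CPM in Div8pos, against 50.9 and 65.9 CPM in Div8neg, a change of 2.48 ± 0.15 (adjusted p = 5.45e-10). In Div5 against Div3, Prdm1, Xbp1 and Atf6 were called higher, at 1.64, 0.60 and 0.47, while Creb3l2 was not (adjusted p = 0.0527 by edgeR). These levels stand beside those of the members, and whether the factors act on them was not tested.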

How the data were processed

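Each library came from 40000 sorted cells whose lysate received ERCC spike-in RNA. It was sequenced with a stranded mRNA kit as 50-base paired reads, per the labels' protocols. The submitters' processing notes name Picard, R 3.2.2 and the build mm9. No aligner or counter was given in the sources used here. The deposited tables hold counts of reads per gene and per spike-in, FPKM values, and mRNAs per cell. In each library the mRNAs per cell are the authors' deposited FPKM times 1 factor (0.139 to 0.769).

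Relative changes were tested with edgeR 4.0.16 (R 4.3.3; quasi-likelihood, TMM, filterByExpr) over all 12 libraries with no host term, in 7 comparisons. Changes per cell were tested with limma 3.58.1 on log2(mRNAs per cell + 0.1), a scale that understates changes of low genes. The scripts were tested on simulated data. Of 21761 rows, 90 without a symbol (0.0498% to 0.0943% of counts) were left out, and 12026 of 21671 genes passed the filter. Alternatives were DESeq2 1.42.0, spike-in scaling, no filter, the 2 groups alone, a host block, a pseudocount of 1, shares from counts, and leaving out each library. Hosts 196 and 197 each gave all 6 groups, so same-numbered libraries come from 1 animal. Their deviations from group means correlated at -0.0109 to 0.400 over 15 group pairs (median 0.172). With 2 against 2 libraries an exact permutation test cannot go below p = 0.333. Intervals cover counting error only.

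The 42 genes and the other lists were chosen with earlier results of these data known. Values per library are given for the 10 members with the largest called change in Div8pos against Div8neg, the 5 in Div5 against Div3, those called lower, and the SEC23, SEC24, SAR1, COPG and KDEL receptor paralogs. Lman2 falls outside this rule and was added, after its values were seen, as the partner of Lman1 in a share. Of other ER to Golgi genes, the 3 with the largest called change each way are named. Protein sequences and the study's methylation data were not used here.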

Additional observations from a re-analysis of the deposited data

How the results depend on the processing

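The counts of members higher in Div8pos were stable: 39 to 40 against Div8neg and 40 against Div0 in every fit that left out 1 library. With the host as a replicate block no count moved by over 1.5 times (15 higher in Div5 against Div3), and the call of Kdelr3 in Div8neg against Div0 was lost. With spike-in scaling, 40 members were higher and 0 lower in Div1 against Div0, 32 were higher in Div5 against Div3, and 0 were lower in Div8neg against Div5, Div8neg against Div0, Div8pos against Div8neg and Div8pos against Div0. Signs turned with spike-in scaling, on the log2 scale, for Sec13 (0.54) and Sec23b (0.52) in Div1 against Div0; Copg2 (0.23), Golgb1 (0.10) and Stx5a (0.32) in Div8neg against Div5; Sec16a (1.47), Sec24b (1.50), Copg2 (1.38), Golga2 (1.55) and Stx5a (1.46) in Div8neg against Div0; Sec24b (0.45) in Div8pos against Div8neg; and Sec24b (1.95) and Copg2 (0.97) in Div8pos against Div0. By its construction that scaling adds the change in total mRNA.

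Members lower in Div1 against Div0 numbered 0 with DESeq2 and 0 with the 2 groups alone. Members lower in Div8pos against Div8neg numbered 1 with DESeq2, 1 with no filter and, per cell, 1 with a pseudocount of 1. Per cell, 0 were higher in Div5 against Div3 with no filter. The adjusted p of the share of Tmed9 in its family was 0.0592 from counts, and the adjusted p of the share of Kdelr3 in its family was 0.0561 with the replicate block. Leaving out 1 library at a time gave, relative to all genes, 0 to 1 members higher and 0 to 2 lower in Div1 against Div0, 0 to 14 higher in Div5 against Div3, 2 to 5 lower in Div8neg against Div0 and 1 to 2 lower in Div8pos against Div8neg. Per cell it gave 1 to 40 higher in Div1 against Div0, 1 to 39 in Div5 against Div3, 13 to 37 in Div8neg against Div5 and 0 to 1 lower in Div8pos against Div8neg. The adjusted p ranged from 0.0109 to 0.0537 for the Kdelr3 share, 0.0261 to 0.056 for Tmed9, 0.0221 to 0.0617 for Tmed10 and 0.00327 to 0.098 for Sec23a. The cause was not tested. With 2 hosts, small changes such as those of Golgb1 and Sec24b, and the low counts of Kdelr3 outside Div8pos, limit what can be read.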
